A study of Mus musculus with 15 samples.

Results

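The levels of 10 genes of the Wnt pathway were followed in RNA-seq libraries of mouse retinal pigment epithelium (RPE): the ligands Wnt5a and Wnt5b, the receptors Fzd1 and Fzd2, the secreted antagonists Sfrp1, Sfrp2, Dkk2 and Dkk3, and the transcriptional targets Axin2 and Lef1. They were taken by gene symbol, and all 10 were found among the 20910 genes of the count table of cultured mouse RPE cells (mRPE) and among the 25038 genes of the RPE/choroid table. The cultured cells came from pooled C57BL/6J mice and were immortalized with a lentivirus carrying the papillomavirus genes E6 and E7. They were made to express Cas9, and a guide RNA against Prom1, which encodes the membrane glycoprotein prominin-1, gave the Prom1-KO cell lines KO22 and KO26. The cell line labels give 4 WT, 3 KO22 and 2 KO26 libraries, so that each KO group is a single cell line. Library series 8995 holds WT 1, KO22 1 and KO26 1, and library series 9262 holds WT 2 to WT 4, KO22 2, KO22 3 and KO26 2. For the tissue, mice with floxed Prom1 (Prom1 fl/fl) were crossed with RPE65-Cre mice and given tamoxifen by gavage, so that Cre was meant to act in the RPE. The dissected RPE/choroid also holds choroidal cells. From it came 3 WT and 3 Prom1-KO libraries, all of library series 12965. Nothing in the labels says which libraries came from separate cultures or animals, so p-values measure the spread between libraries, which may be technical.

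Wnt proteins are secreted lipid-modified ligands that bind Frizzled receptors together with co-receptors such as Lrp5 and Lrp6. In the canonical branch this stabilizes beta-catenin, which enters the nucleus, binds TCF/LEF factors and turns on targets that include the feedback inhibitor Axin2. Secreted Frizzled-related proteins and Dickkopf proteins act outside the cell on ligands or co-receptors, and in the eye the pathway takes part in specifying the RPE, in vascular development and in the control of epithelial growth.

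The sequences just upstream of the transcription starts were examined because Axin2 and Lef1 are known TCF/LEF-responsive genes, and because Dkk2, Sfrp2 and Axin2 differed most between the cell lines. RefSeq promoter windows were found for 6 of the 10 genes, and each matched GRCm39 exactly once on its chromosome. The TCF/LEF core CTTTGA was searched for on both strands in the 250 bases before each start, and 13.8% of 32851 mouse windows held it. It occurred in 3 of the 11 windows of these genes (27.3%), namely in Fzd1 from 242 bases upstream, in the third of the Wnt5b windows from 71 bases upstream and in the fourth of the Lef1 windows from 180 and 120 bases upstream. These Wnt5b and Lef1 windows belong to internal starts, 95550 and 46024 bases from the annotated gene starts. The Dkk2 window also lies inside the annotated gene, before a start 717 bases from the annotated gene start. All 250 bases of the Fzd1 window lie in annotated exons. The first and second Lef1 windows overlap, so the 11 windows are not all separate. No match was present in the windows of Axin2, Dkk2 or Sfrp2, which says only that these letters are not in those windows. Wnt5a, Sfrp1, Dkk3 and Fzd2 had no entry. The stretches outside annotated exons are shown 5′ to 3′ on the strand of the gene, with motif matches in capitals (CTTTGA reads TCAAAG on the other strand), at chr11:108810925-108811168 for Axin2, chr3:130949693-130949942 for the fourth start of Lef1, chr3:131790825-131791042 for Dkk2 and chr3:83673378-83673480 for Sfrp2, all on the plus strand.
Axin2: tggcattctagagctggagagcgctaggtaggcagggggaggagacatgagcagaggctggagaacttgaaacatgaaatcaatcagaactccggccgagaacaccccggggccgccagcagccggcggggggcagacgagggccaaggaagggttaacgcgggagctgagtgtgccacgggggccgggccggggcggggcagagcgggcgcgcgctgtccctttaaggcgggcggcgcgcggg
Lef1: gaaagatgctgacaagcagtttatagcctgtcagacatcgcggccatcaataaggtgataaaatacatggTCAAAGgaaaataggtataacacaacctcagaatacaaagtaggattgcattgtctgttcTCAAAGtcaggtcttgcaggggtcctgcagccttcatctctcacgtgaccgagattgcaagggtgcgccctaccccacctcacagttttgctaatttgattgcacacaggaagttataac
Dkk2: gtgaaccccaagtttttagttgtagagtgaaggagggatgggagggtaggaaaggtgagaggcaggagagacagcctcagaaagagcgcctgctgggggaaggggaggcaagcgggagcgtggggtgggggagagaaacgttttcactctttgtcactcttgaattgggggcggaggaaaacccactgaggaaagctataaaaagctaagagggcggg
Sfrp2: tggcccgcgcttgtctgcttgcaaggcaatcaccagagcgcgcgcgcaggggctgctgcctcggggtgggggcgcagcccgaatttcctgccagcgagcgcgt

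Total counts ran from 8076188 to 27537863 per mRPE library and from 48154444 to 61766179 per RPE/choroid library. Levels are given as CPM, counts scaled to a fixed library size, on the TMM scale, which adjusts for differences in composition between libraries, and the values of the mRPE table and the tissue table were scaled separately. WT 1 stood apart from WT 2 to WT 4, with a chi-square per degree of freedom of 59.4 to 79.6 against them and 4.80 to 7.20 among them. Of 14 RPE markers, 4 were tested in the mRPE libraries, at a summed level of 11.8 to 17.4 CPM in WT, while 9 of 10 fibroblast and stroma markers summed to 21445 to 27064 CPM there. Rpe65, Lrat, Rlbp1, Ttr and the other 6 RPE markers, and Prom1 itself, were not analysed here in mRPE. In the tissue libraries all 14 RPE markers were present, at 2126 to 2886 CPM in WT. A gene was called at a Benjamini-Hochberg adjusted p under 0.05 in edgeR's quasi-likelihood test together with an absolute log2 fold change over 1.2, with the library series as a term for mRPE.

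Per kilobase of exon, the order of mean levels in WT mRPE was Fzd1, Dkk2, Sfrp1, Dkk3, Fzd2, Wnt5a, Axin2, Lef1, Sfrp2 and Wnt5b. The highest, Fzd1, had 45.4 ± 2.63 CPM per kilobase (SD, n = 4), and Dkk2 followed with 33.3 ± 18.6. The middle of the order was Fzd2, at 11.6 ± 4.57, and Wnt5a, at 2.42 ± 0.916. Fzd1 and Dkk2, Dkk2 and Sfrp1, Dkk3 and Fzd2, Lef1 and Sfrp2, and Sfrp2 and Wnt5b overlapped in their ranges over libraries, and the other neighbours did not. In KO22 the order was Fzd1, Sfrp1, Dkk3, Fzd2, Wnt5a, Lef1, Dkk2, Axin2, Wnt5b and Sfrp2, so that Dkk2 moved from rank 2 to rank 7, at 0.367 ± 0.307 CPM per kilobase (n = 3), beside Lef1 and Axin2. In KO26 Dkk2 had rank 5, at 11.4 ± 1.65 CPM per kilobase (n = 2).

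The comparison of KO22 with WT asked which of these genes differ in the Prom1-KO cell line with 3 libraries. Antagonists, a receptor and the feedback target were lower: Dkk2, Sfrp2, Dkk3, Fzd2 and Axin2 fell and Wnt5b rose past both thresholds, so that 6 of 10 were called, against 25.2% of the 20455 genes tested (11.4% higher and 13.8% lower). Of these libraries, only those of KO22 had 5 or more counts of Wnt5b, and only WT libraries had 5 or more of Sfrp2. Each was thus tested only through the group where it was high. The median log2 fold change of the 10 was -1.21, against -0.03 for all genes tested. In bulk libraries, fewer cells of a type and less RNA per cell cannot be told apart. In 8 of the 10 genes every KO22 library lay below every WT library, in Wnt5b every one lay above, and in Wnt5a the groups overlapped. Of all genes tested, 25.3% lay wholly below WT in KO22 and 24.8% wholly above.

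**Figure D1:**
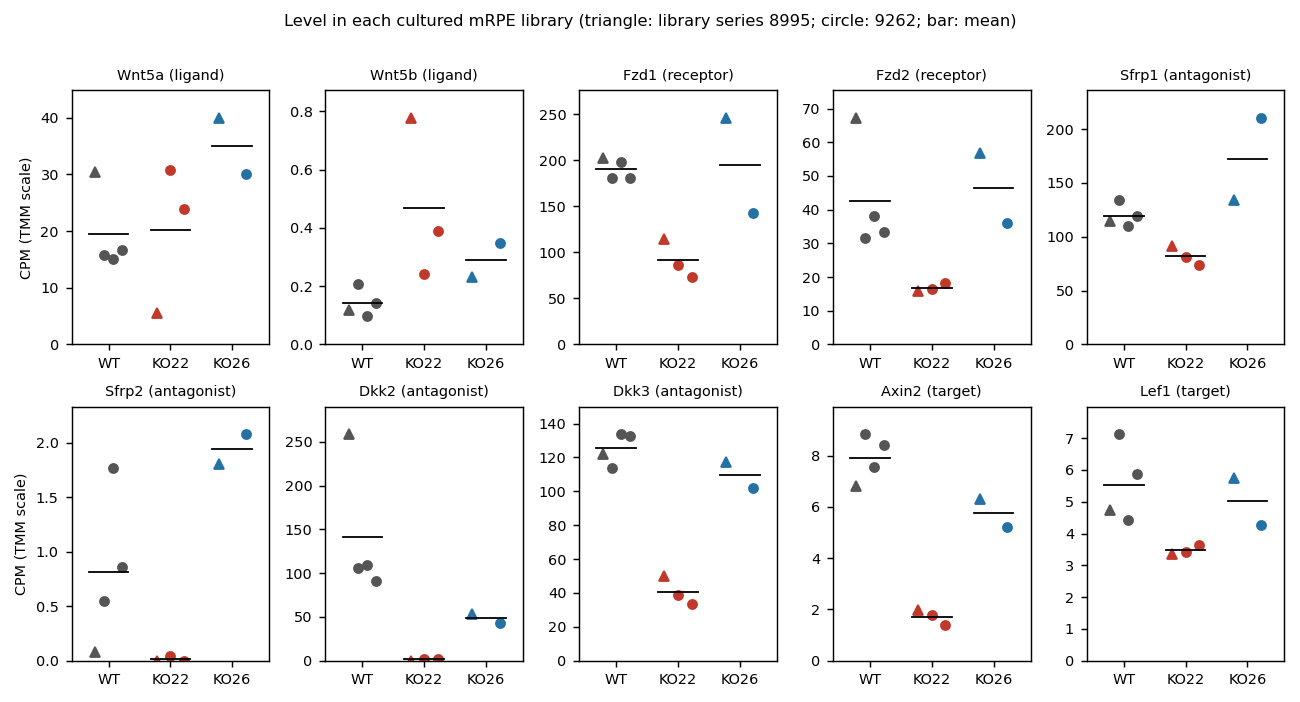
Level of each gene in CPM on the TMM scale (linear y axis from 0) in the WT, KO22 and KO26 libraries of cultured mRPE, with triangles for library series 8995, circles for 9262 and a bar at the group mean. Dkk2 sits between 91.0 and 259 CPM in WT, between 0.0865 and 2.56 in KO22 and at 53.4 and 43.5 in KO26, while Wnt5a has its lowest KO22 library, at 5.62 CPM, in series 8995.

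Wnt5a (ENSMUSG00000021994, chr14:28226495-28249405), a ligand known mainly for beta-catenin-independent signalling, had 30.5 CPM in WT 1, 15.8 in WT 2, 15.0 in WT 3 and 16.6 in WT 4, and 5.62, 30.8 and 23.9 CPM in KO22 1 to KO22 3. The cell lines differed in opposite directions in the 2 library series: KO22 1 was the lowest of all 9 libraries, whereas KO22 2 and KO22 3 lay above the WT libraries of their own series. The log2 ratio of KO22 to WT, with 0.5 CPM added, was -2.34 in series 8995 and 0.76 in series 9262, and the fit over both gave a log2 fold change of 0.01 (SE 0.50, adjusted p = 0.994 by edgeR). Without KO22 1 it was 0.81 (adjusted p = 4.89e-06), and without WT 1 0.79 (adjusted p = 1.42e-05), still within the fold limit. An annotated opposite-strand gene, Gm2670, shares exon sequence with Wnt5a.

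Wnt5b (ENSMUSG00000030170, chr6:119409323-119521897) is the closest relative of Wnt5a among the ligands. It was near the counting floor of 3 counts, with 3, 3, 1 and 2 counts in WT 1 to WT 4, 9, 5 and 5 in KO22 and 5 and 3 in KO26. Pooled over libraries, 19 counts in KO22 against 9 in WT gave a ratio of 2.98 (exact 95% interval 1.29 to 7.49, counting error only). The fitted log2 fold change of 1.58 (SE 0.58, adjusted p = 0.0425) lost its call without WT 1 (0.91, adjusted p = 0.283), WT 3 (1.54, adjusted p = 0.0815) or WT 4 (1.66, adjusted p = 0.0716) and with DESeq2 (adjusted p = 0.14). Leaving out any KO22 library removed the gene from those tested. It was tested only because it was high in KO22, so only a rise could be called.

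Among the receptors, Fzd2 (ENSMUSG00000050288, chr11:102495222-102498884) had 67.3, 31.5, 38.2 and 33.4 CPM in WT and 15.7, 16.3 and 18.2 CPM in KO22. The KO22 libraries were close to each other and below all WT libraries, of which WT 1 was the highest. The log2 fold change was -1.31 (SE 0.21, adjusted p = 0.000607). Without WT 1 it was -1.004 and without KO22 1 -0.98, both within the fold limit at adjusted p of 2.12e-07 and 7.98e-08. Fzd1 (ENSMUSG00000044674, chr5:4803839-4808035), also a seven-pass receptor for Wnt ligands, had 202, 181, 198 and 181 CPM in WT and 115, 85.7 and 73.6 CPM in KO22. Its groups did not overlap either, and its log2 fold change of -1.11 (SE 0.13, adjusted p = 8.56e-05) was within the fold limit. It passed that limit without WT 1 (-1.24) or KO22 1 (-1.22).

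Dkk2 and Sfrp2 showed the largest differences of the 10. Dkk2 (ENSMUSG00000028031, chr3:131790336-131886065), a secreted ligand of Lrp5 and Lrp6 that can inhibit or enhance canonical signalling, had 259, 106, 109 and 91.0 CPM in WT and 0.0865, 2.02 and 2.56 CPM in KO22. These correspond to 6516, 1544, 1115 and 1268 counts in WT and to 1, 42 and 33 counts in KO22. No KO22 library came near the WT range, and KO22 1 was almost without reads of the gene. The log2 fold change was -6.30 (SE 0.58, adjusted p = 2.55e-05), or 78.7-fold lower (95% interval 31.6 to 196), and 0.684% of the genes tested had a larger absolute log2 fold change. Within series 8995 and 9262 the log2 ratios were -8.79 and -5.20. The fitted value was -5.52 without WT 1 and -5.49 without KO22 1, both still called.

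Dkk3 (ENSMUSG00000030772, chr7:111712904-111758760), a divergent member of the Dickkopf family, had 122, 114, 134 and 132 CPM in WT and 50.1, 38.7 and 33.7 CPM in KO22. The WT libraries lay close together, with the KO22 libraries well below them. Its log2 fold change was -1.65 (SE 0.14, adjusted p = 1.68e-05). Sfrp1 (ENSMUSG00000031548, chr8:23901263-23939648), a soluble Frizzled-like protein that binds Wnt ligands, had 114, 134, 110 and 119 CPM in WT and 91.5, 81.3 and 73.7 CPM in KO22. The groups were separate but near each other, and the log2 fold change of -0.55 (SE 0.12, adjusted p = 0.00409) was within the fold limit.

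Sfrp2 (ENSMUSG00000027996, chr3:83673481-83681623), of the same family, was scarce in these cells, with 2, 8, 18 and 12 counts in WT and 0, 1 and 0 counts in KO22. Pooled, 40 counts in WT against 1 in KO22 gave a ratio of 28.3 (exact 95% interval 4.80 to 1145, counting error only). The fitted log2 fold change was -4.72 (SE 0.93, adjusted p = 0.00213), and its size depends on the counts added at such low levels. WT 1 had only 0.0795 CPM, against 0.548 to 1.77 CPM in the WT libraries of series 9262, so that within series 8995 the log2 ratio was -0.21 and within series 9262 -1.50. Without KO22 2, which held the 1 count, the fitted value was -6.14 (adjusted p = 0.0198). Of the WT and KO22 libraries, only the WT libraries of series 9262 had 5 or more counts of Sfrp2. Leaving out any of these removed the gene from those tested.

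Axin2 (ENSMUSG00000000142, chr11:108811169-108841609), a scaffold of the beta-catenin destruction complex and a widely used readout of canonical signalling, had 6.83, 8.84, 7.56 and 8.40 CPM in WT and 1.99, 1.78 and 1.40 CPM in KO22. Its level was lower in every KO22 library by a margin wider than the spread within either group. The log2 fold change was -2.19 (SE 0.23, adjusted p = 4.94e-05), or 4.55-fold lower (95% interval 3.20 to 6.48), with log2 ratios of -1.56 and -2.07 within the series. Lef1 (ENSMUSG00000027985, chr3:130903919-131018005), a TCF/LEF factor whose gene is itself a target, had 4.73, 7.13, 4.42 and 5.88 CPM in WT and 3.37, 3.42 and 3.65 CPM in KO22. The groups did not overlap, but the log2 fold change of -0.66 (SE 0.23, adjusted p = 0.0338) was within the fold limit. Axin2 and Lef1 each overlap an annotated gene on the opposite strand (Gm11670 and Lef1os1), as do Sfrp2 (Gm26771), Wnt5b (Fbxl14) and Fzd2 (Gm73012). The sources used here do not say which strand was counted.

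**Figure D2:**
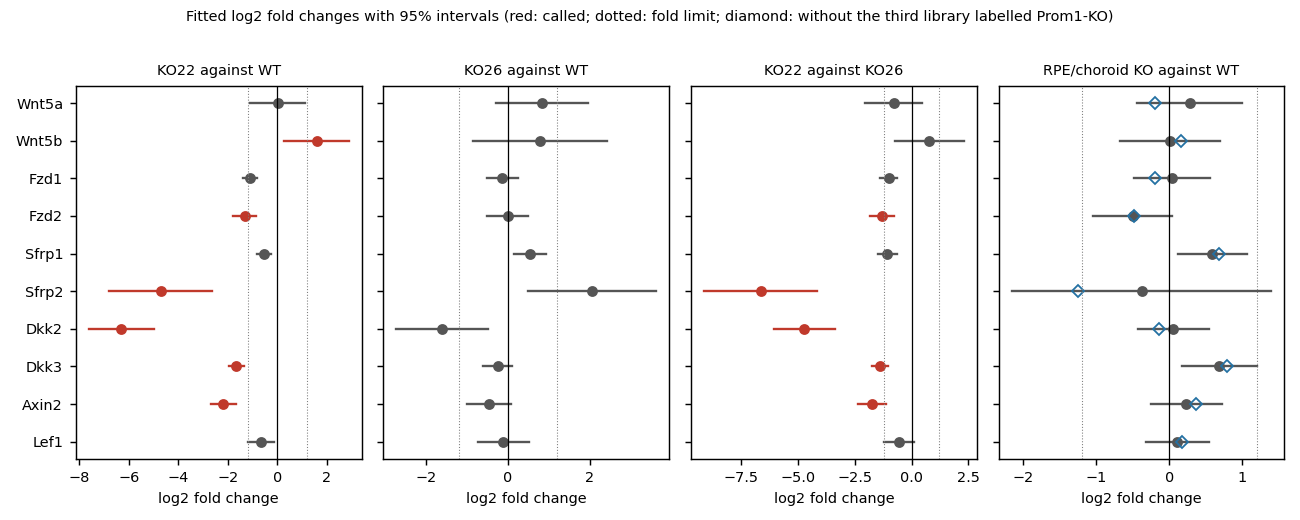
Fitted log2 fold change of each gene with its 95% interval in the 4 comparisons (each x axis has its own scale), with called genes in red, dotted lines at the fold limit and, for RPE/choroid, diamonds for the fit without the third library labelled Prom1-KO. Dkk2 is at -6.30 for KO22 against WT and at -4.72 for KO22 against KO26, and none of the 10 genes is called for KO26 against WT or in RPE/choroid.

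Markers of other cell types also differed between KO22 and WT, where 13.8% of all genes tested were called lower and 11.4% higher. Of 9 fibroblast and stroma markers tested, 7 were called lower and none higher, and their summed level was 5980 to 9053 CPM in KO22, against 21445 to 27064 in WT and 25974 to 31444 in KO26, with no marker at 0 over a group. Of 5 smooth muscle and pericyte markers tested, 3 were lower and 1 higher. Of 4 endothelial markers tested, 2 were lower and 1 higher, and their summed level was 3.41 to 4.77 CPM in KO22, against 153 to 236 in WT and 56.3 to 73.8 in KO26. Most of that sum was Kdr, a receptor for vascular endothelial growth factor, at 151 to 234 CPM in WT and 0.346 to 3.71 CPM in KO22. The higher marker, Plvap, was at 1.82 on the log2 scale (adjusted p = 0.0192), with 19, 2, 3 and 0 counts in WT and 29, 13 and 5 in KO22. Like Wnt5b, Plvap was tested only because it was high in KO22, so only a rise could be called. Of the 4 RPE markers tested, 1 was called higher in KO22 and none lower: Mitf, which encodes a pigment cell transcription factor, with a log2 fold change of 1.41 (SE 0.33, adjusted p = 0.0055). Rdh5 was at -1.13 (adjusted p = 0.00393), Best1 at 0.80 (adjusted p = 0.159) and Pmel at -0.40 (adjusted p = 0.216). Their part in the differences of the Wnt genes was not tested.

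The second cell line, KO26, did not show the same calls. The authors removed both KO26 libraries as outliers of a principal component analysis, proposing biological heterogeneity or technical anomalies. None of the 10 genes passed both thresholds against WT in edgeR, against 1.92% of the 20737 genes tested, and 3 of them had an unadjusted p under 0.05 (Dkk2, Sfrp1 and Sfrp2), against 20.1% of the genes tested. DESeq2 called none either. Their median log2 fold change was -0.05. The 95% interval of the log2 fold change was -0.50 to 0.50 for Fzd2, -0.73 to 0.51 for Lef1, -0.50 to 0.24 for Fzd1 and -0.60 to 0.10 for Dkk3, all within the fold limit.

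Dkk2 had 53.4 CPM in KO26 1 and 43.5 CPM in KO26 2, both below every WT library, as were 12.8% of the genes tested, and above every KO22 library. Its log2 fold change against WT was -1.60 (SE 0.50, adjusted p = 0.113). The spread in this fit comes from all 9 libraries, and the call turns on single libraries: without KO22 1 the value was -1.67 (adjusted p = 2.11e-05), and over the WT and KO26 libraries alone -1.69 (adjusted p = 5.60e-05), while without WT 1 it was -0.76 (adjusted p = 0.462). Sfrp2 had 39 and 18 counts in KO26, or 1.81 and 2.08 CPM, just above the highest WT library, as were 11.9% of the genes tested. Its log2 fold change of 2.06 (SE 0.71, adjusted p = 0.138) was called without KO22 1 (1.99, adjusted p = 0.0357), without KO26 2 (4.35, adjusted p = 0.0465) and over the WT and KO26 libraries alone (1.97, adjusted p = 0.0391). It was 1.03 without KO26 1 (adjusted p = 0.610), 1.07 without WT 1 (adjusted p = 0.3995) and 1.36 without the series term (adjusted p = 0.391).

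Axin2 had 6.31 and 5.20 CPM in KO26, slightly below the WT range, with a log2 fold change of -0.46 (SE 0.25, adjusted p = 0.332). Sfrp1 had 134 and 211 CPM there, of which only the latter exceeded the WT range, at 0.54 (SE 0.18, adjusted p = 0.125). Wnt5a had 40.0 and 30.1 CPM, at 0.84 (SE 0.51, adjusted p = 0.382), and overlapped WT only through WT 1. Without WT 1 it was at 1.78 (adjusted p = 0.132), and without KO22 1 at 0.69 (adjusted p = 0.00445), within the fold limit. Wnt5b had 8 counts in KO26 against 9 in WT, a ratio of 1.88 (exact 95% interval 0.631 to 5.49, counting error only).

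The direct comparison of KO22 with KO26 tested whether the cell lines differ. Dkk2, Sfrp2, Dkk3, Axin2 and Fzd2 were lower in KO22 than in KO26, and no member was higher, so that 5 of 10 were called, against 18.3% of the genes tested (10.7% lower and 7.56% higher). The log2 fold change was -4.72 for Dkk2 (SE 0.60, adjusted p = 0.000242), -1.40 for Dkk3 (SE 0.16, adjusted p = 0.000117) and -1.74 for Axin2 (SE 0.27, adjusted p = 0.000779). Dkk2 was at -3.92 without KO22 1 (adjusted p = 4.42e-08) and at -5.37 over the KO22 and KO26 libraries alone (adjusted p = 0.0129). For Sfrp2, 57 counts in KO26 against 1 in KO22 gave a ratio of 85.3 (exact 95% interval 14.7 to 3428, counting error only), with an adjusted p of 0.00128 for the fit, whose value ran from -9.08 without KO26 2 to -5.72 without KO26 1. Fzd2 was at -1.31 (SE 0.24, adjusted p = 0.00203), and without KO22 1 at -0.95 (adjusted p = 0.000148), within the fold limit. Sfrp1 and Fzd1 differed by -1.07 (SE 0.19, adjusted p = 0.0016) and -0.996 (SE 0.17, adjusted p = 0.00132), within the fold limit, so that 7 of 10 had an adjusted p under 0.05 whatever the fold, against 34.4% of the genes tested. The intervals of Wnt5a (-2.06 to 0.48), Wnt5b (-0.72 to 2.29) and Lef1 (-1.21 to 0.09) included 0. Without KO22 1, Wnt5a was at 0.050 and Wnt5b at -0.12. The comparisons with WT share the WT libraries, so their values are set side by side here and not correlated.

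In the wider pathway, 73 of 95 genes in 8 Wnt lists were tested, of which 22 were lower and 8 higher in KO22 than in WT, with a median log2 fold change of -0.48. Of all genes tested, 13.8% were lower and 11.4% higher, and each list count for KO22 is to be read against these shares. Among the higher list genes, Wnt5b, Wnt7b and Notum were tested only because they were high in KO22. The same lists gave 1 higher and 1 lower gene in KO26, where 1.92% of all genes tested were called, with a median of 0.00: the receptor Fzd4 at 1.78 (SE 0.32, adjusted p = 0.0183) and the Wnt-amplifying ligand Rspo2 at -1.74 (SE 0.32, adjusted p = 0.0193). The lists were chosen with earlier results of these data known.

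Of 12 beta-catenin target genes tested, 6 fell and 1 rose in KO22, and their median was -1.42 on the log2 scale. Apart from Axin2, the lower targets with the greatest changes were Lgr5, an R-spondin receptor, at -4.62 (SE 0.44), Nkd2 at -3.58 (SE 0.18) and Nkd1 at -2.92 (SE 0.48), intracellular feedback inhibitors, and the receptor Tnfrsf19 at -3.41 (SE 0.19). Lgr5 had 24.1, 14.5, 18.0 and 18.9 CPM in WT, 0.346, 1.40 and 0.233 CPM in KO22, and 54.4 and 18.2 CPM in KO26. Notum, a secreted deacylase that inactivates Wnt ligands, was the 1 higher target, at 0 to 3 counts per library in WT and 7 to 13 in KO22. It was tested only because it was high in KO22, so only a rise could be called. Within the fold limit, other targets differed in the upward direction: Myc at 1.15 (adjusted p = 3.15e-05), Ccnd1 at 1.13 (adjusted p = 0.00587), Tcf7 at 1.10 (adjusted p = 0.00664) and Znrf3 at 0.91 (adjusted p = 0.0073).

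Of 10 ligands tested, 3 fell and 3 rose in KO22, and their median was 0.08 on the log2 scale. Wnt9a was at -3.07 (SE 0.42), Wnt2 at -2.86 (SE 0.51) and Wnt4 at -2.16 (SE 0.34). Wnt10b was at 2.62 (SE 0.55), with 2 to 15 counts per library in WT and 19 to 49 in KO22, and Wnt7b had 0 or 1 count per library in WT and 5 to 12 in KO22. The higher ligands were thus scarce throughout. In this comparison Wnt5b and Wnt7b had 5 or more counts in KO22 libraries only. They were tested only because they were high there, so only a rise could be called. Of 6 antagonists tested, 4 were lower and none higher, with a median of -1.67: the fourth beside Dkk2, Dkk3 and Sfrp2 was Frzb, a Frizzled-related antagonist, at -1.68 (SE 0.25).

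Of 14 receptors and co-receptors tested, 4 were lower and none higher in KO22, with a median of -0.69. These were Fzd6 at -2.48 (SE 0.29), the co-receptor Lrp6 at -1.35 (SE 0.11), Fzd2 at -1.31 (SE 0.21) and Fzd5 at -1.27 (SE 0.19). In the R-spondin axis Rspo2 was at -5.05 (SE 0.36) and the receptor Lgr6 at 1.99 (SE 0.45). Rspo2 had 8.38, 5.83, 9.52 and 6.89 CPM in WT, 0.346, 0.145 and 0.233 CPM in KO22, and 3.06 and 1.85 CPM in KO26, so that its KO26 level lay between the other groups, as did that of Dkk2. Of 16 genes of the beta-catenin core tested, 2 were lower and none higher, against 13.8% lower and 11.4% higher over all genes, with a median of 0.08: Tcf7l2, a TCF/LEF factor, at -2.25 (SE 0.14) and Btrc, a subunit of the ubiquitin ligase that marks beta-catenin for breakdown, at -1.35 (SE 0.11). The secretion genes Wls and Porcn were at -0.86 (SE 0.11) and -0.87 (SE 0.29), within the fold limit.

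**Figure D3:**
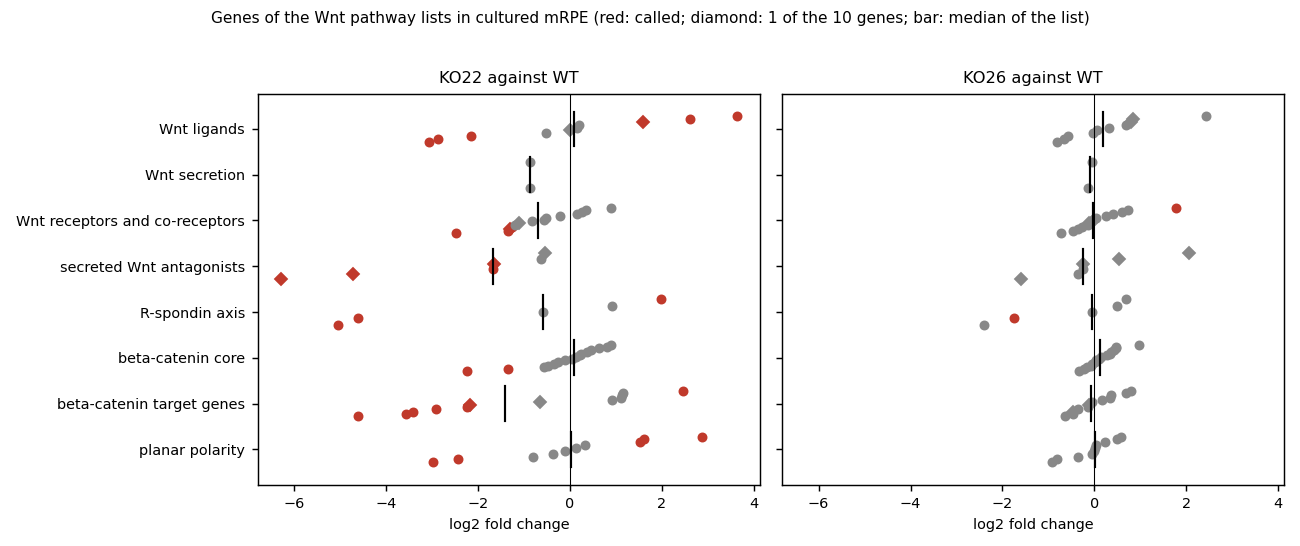
Log2 fold change of each tested gene of the 8 Wnt pathway lists (rows) for KO22 against WT and KO26 against WT on a shared x axis, with called genes in red, diamonds for the 10 genes followed here and a bar at the list median. For KO22, 22 genes are called lower and 8 higher, with the antagonists (median -1.67) and target genes (median -1.42) to the left, and for KO26 the lists center near 0.

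The genes of these lists whose log2 levels followed each of the 10 most closely over the 9 mRPE libraries were found by Pearson's r, as a description, since libraries of a cell line share their cells. Dkk2 was closest to Tcf7l2 (r = 0.98), Dkk3 to Lrp6 (0.98), Axin2 to Dkk3 (0.98), Fzd2 to Fzd6 (0.96), Fzd1 to Wls (0.96) and Sfrp1 to Lrp5 (0.96). Weaker likeness was found for Sfrp2 with Lrp5 (0.87), Lef1 with Axin2 (0.85), Wnt5b with Wnt10b (0.75) and Wnt5a with Fzd4 (0.73).

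The tissue comparison asked whether the same genes differ in RPE/choroid of mice labelled Prom1-KO. Prom1 itself was at 48.7, 49.5 and 53.3 CPM in WT and 49.9, 48.1 and 35.5 CPM in the libraries labelled Prom1-KO, with a log2 fold change of -0.18 (SE 0.16, adjusted p = 0.824), so the label was not seen in the level of the targeted gene. None of the 10 Wnt genes was called in edgeR, against 0.189% of the 24926 genes tested, and 2 of them (Dkk3 and Sfrp1) had an unadjusted p under 0.05, against 8.3% of the genes tested. DESeq2 called none either. The median log2 fold change of the 10 was 0.08.

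Dkk3 had 146, 88.7 and 104 CPM in WT and 199, 197 and 150 CPM in the libraries labelled Prom1-KO, and Sfrp1 had 93.6, 67.3 and 60.4 against 125, 113 and 94.8 CPM. For each of these antagonists every library labelled Prom1-KO lay above every WT library, by a narrow margin, as did 6.71% of the genes tested. The log2 fold changes were 0.69 for Dkk3 (SE 0.22, adjusted p = 0.437, interval 0.17 to 1.21) and 0.59 for Sfrp1 (SE 0.20, adjusted p = 0.476, interval 0.12 to 1.06). In cultured cells both genes were lower in KO22 than in WT. In KO26 Sfrp1 was at 0.54 and Dkk3 at -0.25 against WT, and neither was called. The difference between tissue and culture was not tested.

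Axin2 had 9.36, 6.44 and 6.996 CPM in WT and 9.38, 10.4 and 6.97 CPM in the libraries labelled Prom1-KO. The groups overlapped, and the interval of the log2 fold change, -0.26 to 0.72, did not reach the fold limit. Dkk2 had 13.0, 19.7 and 16.7 CPM against 14.8, 15.5 and 21.2 CPM, with an interval of -0.43 to 0.54. Intervals within the fold limit were also found for Lef1 (-0.32 to 0.54), Fzd1 (-0.48 to 0.56), Wnt5a (-0.44 to 1.00), Wnt5b (-0.68 to 0.70) and Fzd2 (-1.04 to 0.04).

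Sfrp2, which was scarce in culture, had 9.48, 12.1 and 51.2 CPM in WT and 12.5, 8.05 and 35.6 CPM in the libraries labelled Prom1-KO. A single library of each group was high, and the interval of -2.16 to 1.40 reached past the fold limit on both sides. The log2 fold change of -0.38 became 0.79 without WT 3 and -1.25 without the third library labelled Prom1-KO. Col1a1, a collagen gene of fibroblasts, was highest in the same libraries, at 58.8, 151 and 251 CPM in WT and 61.1, 50.2 and 274 CPM in the libraries labelled Prom1-KO. Its part in the Sfrp2 values was not tested.

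**Figure D4:**
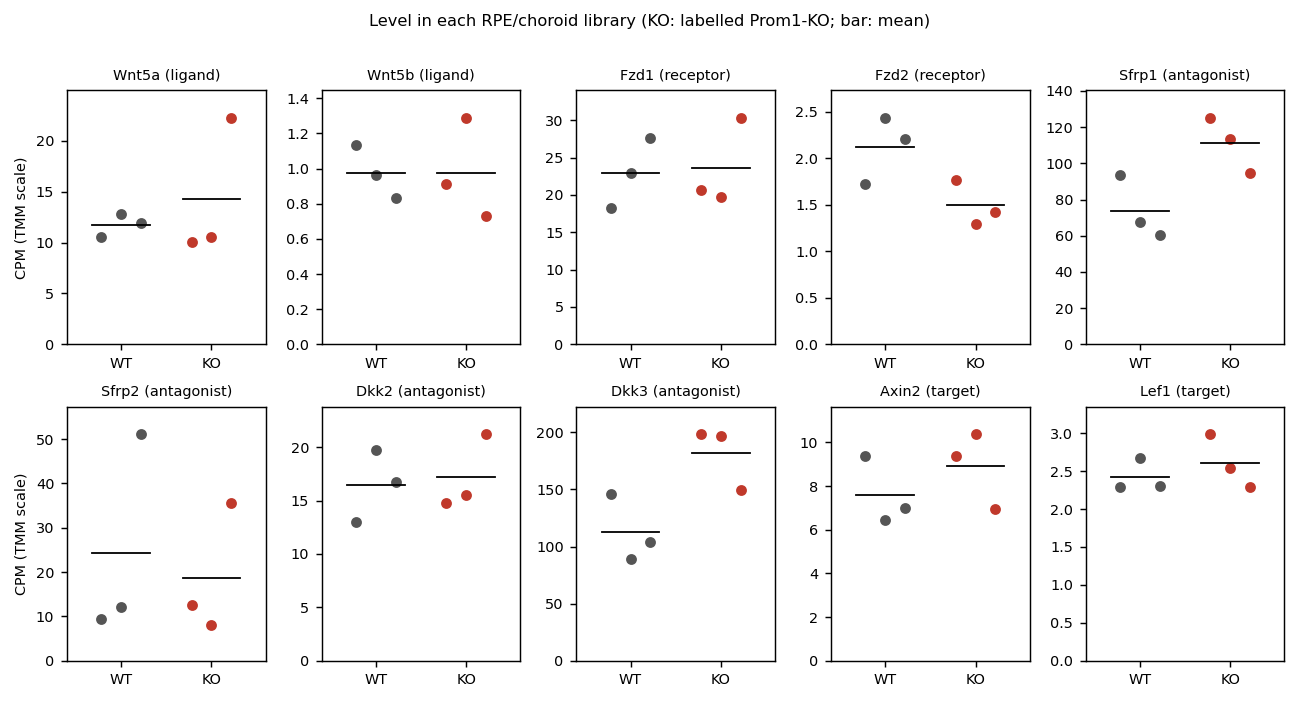
Level of each gene in CPM on the TMM scale (linear y axis from 0) in the 3 WT and 3 Prom1-KO labelled RPE/choroid libraries, with a bar at the group mean. Dkk3 and Sfrp1 sit higher in all 3 libraries labelled Prom1-KO, from 150 to 199 and from 94.8 to 125 CPM, and the other 8 genes overlap between the groups.

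The third library labelled Prom1-KO stood apart from the others: genes of the mitochondrial genome took 84.2% of its counts, against 64.9% to 71.3% in the other 5, and its chi-square per degree of freedom was 232 and 247 against the other libraries of its group, which had 16.3 between them. Without it, the log2 fold change was 0.80 for Dkk3 (adjusted p = 0.352), 0.68 for Sfrp1 (adjusted p = 0.398) and 0.37 for Axin2 (adjusted p = 0.623), and none of the 10 genes was called. Wnt5a, with 22.3 CPM in that library against 10.1 to 12.8 in the other 5, went from 0.28 to -0.20, and Fzd1 and Dkk2 went from 0.04 to -0.19 and from 0.06 to -0.14.

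Markers of RPE moved in the same libraries. Of 14 RPE markers, 3 were called lower in the libraries labelled Prom1-KO and none higher, against 0.189% lower over all genes, and their summed level was 1280 to 1450 CPM there, against 2126 to 2886 in WT. Rpe65, the visual cycle isomerase, was at 280, 204 and 287 CPM in WT and 1.13, 5.97 and 4.48 CPM in the libraries labelled Prom1-KO. The other calls were Lrat, at -3.43 on the log2 scale, and Rdh5, at -2.10, whereas the pigment genes Dct, Tyr, Pmel and Tyrp1 were at 0.37, 0.31, -0.15 and -0.16. Ttr, not called, had a mean of 731 CPM in WT and 90.4 CPM in the libraries labelled Prom1-KO. These means were 46.6 and 11.1 for Rlbp1, 50.3 and 28.5 for Mitf, and 40.9 and 25.7 for Otx2, also not called. Of the 14 markers, only Dct and Tyr had a higher mean in the libraries labelled Prom1-KO. The summed level of 8 photoreceptor markers ranged from 39.2 to 1108 CPM in WT and from 19.2 to 523 in the libraries labelled Prom1-KO, that of 6 endothelial markers from 88.0 to 175 and from 58.1 to 77.4. Of 87 genes tested in the Wnt lists, none was called in tissue, and their median log2 fold change was -0.02.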

How the data were processed

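RNA of 9 mRPE and 6 RPE/choroid libraries was sequenced. Per the labels and methods, the authors trimmed reads with Trim Galore 0.6.7, used STAR with mm39 for alignment and counting per gene, and deposited raw counts; the annotation release is not given in the sources used here. The deposited normalized signal is those counts divided by a DESeq2 size factor for each library, and was not used for tests.

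Here, with edgeR 4.0.16 in R 4.3.3, genes were tested if 3 or more libraries had 5 or more counts (quasi-likelihood, TMM, Benjamini-Hochberg). KO22 was compared with WT over 7 libraries, the other mRPE contrasts over 9, and the tissue groups over 6. Log2 ratios within a library series added 0.5 CPM. Coordinates and exon lengths came from GENCODE M39 on GRCm39. The fits were also run on simulated counts that held no effect of library series. Changes were planted only in genes above a minimum level, which Wnt5b did not reach. Counting intervals are exact binomial (Clopper-Pearson), at 95%, and cover counting error only; PCR copies are not independent molecules. Depth was 8076188 to 61766179 counts per library.

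Libraries were grouped by genotype and cell line labels. The members and lists were chosen with earlier results of these data known. Named were the 10 genes, at most 4 called genes in each direction per pathway list and comparison, and the list gene closest to each of the 10; marker genes were named for the checks of cell type, and Wls, Porcn, Col1a1, Myc, Ccnd1, Tcf7 and Znrf3 after their values were seen. Alternatives were DESeq2 1.42.0, its size factors, other count filters, no fold limit, no series term, other libraries in the fit, within-series ratios, each library left out in turn and, chosen after seeing the data, leaving out mitochondrially encoded genes in tissue.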

Additional observations from a re-analysis of the deposited data

Results flagged for a closer look

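In 2 of the 10 genes, a single WT library lay far from the other 3: WT 1 had 30.5 CPM of Wnt5a and 259 CPM of Dkk2, with a gap to the next library of 0.899 and 0.89 of the whole range, above Dixon's 95% limit for 4 values. Chance alone would do this in about 1 of 20 groups, and WT 1 is the only WT library of series 8995.

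In the direct test of KO22 against KO26, 7 of the 10 genes had an adjusted p under 0.05 by edgeR with no limit on the fold change, against 34.4% of all genes tested, and 5 of the 7 also passed that limit. The log2 fold changes were -0.996 for Fzd1 (adjusted p = 0.00132), -1.31 for Fzd2 (0.00203), -1.07 for Sfrp1 (0.0016), -6.64 for Sfrp2 (0.00128), -4.72 for Dkk2 (0.000242), -1.40 for Dkk3 (0.000117) and -1.74 for Axin2 (0.000779). That of Sfrp2 rests on 1 count in KO22 and is no bound.

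Sfrp1 and Dkk3 were higher in every library labelled Prom1-KO of RPE/choroid than the WT mean (log2 fold changes 0.59 and 0.69) and lower in every KO22 library than the WT mean. In KO26 Sfrp1 was at 0.54 and Dkk3 at -0.25 against WT, and neither was called. The difference between tissue and culture was not tested.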

How the results depend on the processing

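For KO22 against WT, the count of higher genes was 1 and fell to 0 with DESeq2 and with filterByExpr, and was 0 to 1 with each library left out. The count of lower genes was 5, rose to 8 with no limit on the fold change and was 4 to 5 with each library left out. With no such limit, 53% of the 20455 genes tested were called in either direction, and 5331 were lower. For KO26 against WT, where the counts were 0, the fit over the WT and KO26 libraries alone gave 1 higher and 1 lower, and leaving out libraries gave 0 to 1 in each direction. For KO22 against KO26 leaving out libraries gave 5 to 6 lower, and in tissue 0 under every alternative.

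Values near 0 changed sign. Wnt5a in KO22 was -0.021 with DESeq2, -0.0034 with its size factors, -0.070 with filterByExpr and -0.46 to 0.81 with libraries left out. In KO26, Fzd2 was -0.012 with DESeq2, -0.013 with its size factors, -0.0021 with filterByExpr, -0.095 over WT and KO26 alone and -0.096 to 0.31 with libraries left out; Fzd1 was 0.029 without the series term and -0.34 to 0.13 with libraries left out, and Lef1 -0.42 to 0.21. For KO22 against KO26, leaving out libraries gave -1.28 to 0.050 for Wnt5a and -0.12 to 1.33 for Wnt5b. In tissue it gave -0.20 to 0.47 for Wnt5a, -0.24 to 0.16 for Wnt5b, -0.19 to 0.20 for Fzd1, -1.25 to 0.79 for Sfrp2, -0.14 to 0.20 for Dkk2 and -0.0083 to 0.19 for Lef1. The cause was not tested.

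Over all genes, higher and lower calls went with no fold limit from 2338 and 2816 to 5506 and 5331 for KO22, from 250 and 149 to 490 and 235 for KO26, and from 1568 and 2229 to 3388 and 3744 for KO22 against KO26 (988 and 1348 over KO22 and KO26 alone). For KO26 they were 123 and 71 without the series term, 408 and 410 over WT and KO26 alone, and 269 lower with DESeq2. In tissue, 0 and 47 became 84 and 189 with DESeq2, and 1 was higher with filterByExpr or without mitochondrially encoded genes. With each tissue library left out, 0 to 5 genes were higher and 9 to 37 lower. Beyond the library series, which was a term in the mRPE fits, the labels pair no libraries between groups. No further paired analysis was possible. Wnt5b and Sfrp2 were limited by depth.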

Other observations

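Genes of planar cell polarity, the beta-catenin-independent branch that orients cells within a sheet, moved in both directions in KO22. All 10 of the list were tested, of which 3 were higher and 2 lower than in WT, against 11.4% and 13.8% of all genes tested, with a median log2 fold change of 0.01. The cadherin Celsr1 was at 2.87 (SE 0.34, adjusted p = 0.000101 by edgeR) and its relative Celsr2 at -2.98 (SE 0.38, adjusted p = 0.000158). Celsr1 had 0.675, 0.274, 0.785 and 0.861 CPM in WT, 5.36, 5.11 and 3.80 CPM in KO22, and 0.325 and 0.463 CPM in KO26, while Celsr2 had 3.73, 3.50, 3.44 and 2.66 CPM in WT, 0.173, 0.434 and 0.621 CPM in KO22, and 5.99 and 2.31 CPM in KO26. The KO22 libraries did not overlap the other groups in either gene. Celsr3 was at 1.60 (SE 0.45), the scaffold Scrib at 1.53 (SE 0.13) and Daam2, a formin, at -2.45 (SE 0.13). None of the 10 was called in KO26 or in RPE/choroid.

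In the direct comparison of the cell lines, the receptor Fzd4 was at -2.99 (SE 0.37, adjusted p = 0.000192) in KO22 against KO26, with 1.47, 4.48 and 4.27 CPM in KO22, 20.2 and 32.3 CPM in KO26 and 6.58 to 9.62 CPM in WT. It was the 1 receptor called higher in KO26 than in WT, and its KO26 libraries lay above all others. Lgr6 was at 4.38 (SE 0.75, adjusted p = 0.00142) in the same comparison, with 6.23, 4.58 and 7.84 CPM in KO22 and 0.371 and 0.463 CPM in KO26. In WT it had 4.37 CPM in WT 1 and 0.646 to 1.18 CPM in WT 2 to WT 4, so that its WT level differed between the library series.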
